A study of Mus musculus with 28 samples.

Results

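The 7 genes described here encode transcription factors that set the identity of intestinal epithelium. They are the homeobox genes *Cdx1* and *Cdx2*, the nuclear receptor genes *Hnf4a* and *Hnf4g*, the Krüppel-like factor genes *Klf4* and *Klf5*, and the zinc finger gene *Gata6*. They were chosen by name for this known role, with earlier results of these data known, and all 7 were found among the 13519 genes of the count data. Their RNA was measured by bulk RNA sequencing in 28 samples of mouse colon organoids, which are epithelial cultures grown in a gel matrix.

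All organoids came from C57BL/6N mice and carried the *Villin::CreERT2* transgene, a Cre recombinase under an epithelial promoter that becomes active with 4-hydroxytamoxifen (4-HT), together with 2 floxed *Apc* alleles. This was the whole genotype of AC organoids. A heterozygous LSL-R172H allele of *Trp53* was added in PAC, a heterozygous flox V600E allele of *Braf* in BAC, and each of them in BPAC. Every culture was treated for 24 hours either with ethanol (EtOH), in which the alleles stay unrecombined, or with 3.5 µM 4-HT, and RNA was isolated 3 days later. By their labels the samples came from 7 donor mice (AC 1, the other genotypes 2 each), and 2 cultures were kept per donor, duplicates 1 and 2. The label of 1 4-HT-treated BAC sample of donor 1 carries no duplicate number, and it was taken as duplicate 1, since the other such sample is numbered 2. The study describes 2 donor mice and 2 passages per donor for every genotype, so duplicates are taken as passages, although the labels do not say so. A second AC donor was not analysed here. There were thus 2 samples per treatment for AC and 4 for the others, and values of a group are given below in the order duplicate 1 of donors 1 and 2, then duplicate 2 of donors 1 and 2 (for AC, duplicates 1 and 2). Duplicates of a donor are not separate animals, so p values measure in part the spread between cultures.

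CDX1 and CDX2 establish and keep the intestinal programme in the gut endoderm, and loss of CDX2 protein is a known feature of part of the *BRAF*-mutant colorectal cancers. HNF4A and its relative HNF4G bind enhancers of enterocyte genes, many of them together with CDX2 and GATA factors. KLF4 is a factor of differentiated surface cells and goblet cells that restrains the cell cycle, whereas its relative KLF5 is a factor of dividing crypt cells. APC loss activates β-catenin and with it the TCF/LEF factors, and BRAF V600E activates the ERK pathway.

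Of the 7 genes, *Klf4*, *Hnf4a* and *Cdx2* were matched to a promoter sequence, and *Cdx1*, *Hnf4g*, *Klf5* and *Gata6* were not. The 3 are shown since *Klf4* had a strong fall, *Hnf4a* a moderate one and *Cdx2* an inconstant change below. Shown are the 200 bases from 250 to 51 bases before the RefSeq start of each gene (GRCm38.p6), 5′ to 3′ on the strand of the gene, at chr4:55532526-55532725 on the minus strand for *Klf4*, at chr2:163506607-163506806 on the plus strand for the upstream start of *Hnf4a*, and at chr5:147307300-147307499 on the minus strand for *Cdx2*. Capitals mark matches, on either strand, to any of 6 short motifs. The GC box, which KLF and SP factors bind, was searched as GGGCGG. The other KLF motif was searched as CACCC, with no letters required around it.
Klf4: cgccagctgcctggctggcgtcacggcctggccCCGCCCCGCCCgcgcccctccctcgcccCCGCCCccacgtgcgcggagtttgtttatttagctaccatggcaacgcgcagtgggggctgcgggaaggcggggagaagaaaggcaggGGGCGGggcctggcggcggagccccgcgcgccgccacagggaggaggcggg
Hnf4a: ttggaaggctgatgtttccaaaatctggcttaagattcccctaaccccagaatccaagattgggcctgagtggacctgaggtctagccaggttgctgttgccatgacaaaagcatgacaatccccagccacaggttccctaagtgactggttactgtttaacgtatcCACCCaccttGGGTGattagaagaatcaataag
Cdx2: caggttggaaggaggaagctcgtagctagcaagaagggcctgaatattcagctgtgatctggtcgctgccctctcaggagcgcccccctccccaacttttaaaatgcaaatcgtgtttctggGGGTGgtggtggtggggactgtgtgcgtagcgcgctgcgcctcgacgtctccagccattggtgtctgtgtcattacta

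The *Klf4* stretch held 4 GC boxes, 2 of which overlap, at a GC content of 76.5%, against a median of 51.5% over 32851 promoter stretches of the same length. The *Hnf4a* stretch held 2 CACCC matches and the *Cdx2* stretch 1. The stretch of another *Hnf4a* start, at chr2:163546905-163547104, was searched as well but is not printed, and it held 4 CACCC matches. The TCF/LEF motif was searched as CTTTGA. For CDX factors the letters searched were TTTATG. For GATA factors the search was for AGATAA on either strand. The core of the HNF4 repeat was searched as CAAAGT. Neither the 3 stretches shown nor the other *Hnf4a* stretch held any of these 4 motifs. Over all promoter stretches, 24.6% held the GC box, 44.4% CACCC, 11.8% the TCF/LEF motif, 8.78% the CDX motif, 8.42% the GATA motif and 10.5% the HNF4 core. A match is a description of the letters and not of binding, which was not measured.

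Total counts of the samples ran from 20577276 to 40068718, and no factor had fewer than 205 counts in any sample. Levels are given as CPM, the counts of a gene rescaled so that every library has the same fixed total, after scaling by edgeR's TMM factors. Summed CPM of the 15 colon epithelium markers (among them *Epcam*, *Krt8*, *Vil1* and *Car1*) ranged from 36400 to 50820 with EtOH and from 23840 to 31870 with 4-HT. Of 5 small intestine markers (Paneth and proximal) 4 were among the genes analysed. Their sums ranged from 302 to 506 CPM with EtOH and from 177 to 570 CPM with 4-HT. Of the markers of other cell types, 1 of 8 fibroblast, 2 of 5 endothelial, 3 of 8 immune and 0 of 3 smooth muscle genes were among the genes analysed, with sums of 3.38 to 13.7 CPM with EtOH and 0.238 to 3.83 CPM with 4-HT for the fibroblast gene *Pdgfrb* and of at most 7.08 CPM for the others. Their part in the changes below was not tested. *Trp53* stood at 51.4 to 66.1 CPM in EtOH-treated PAC and BPAC organoids and at 97.9 to 122 CPM in EtOH-treated AC and BAC organoids. Counts per gene do not separate the deleted part of *Apc* or the mutant codon of *Braf*. In the 4-HT-treated PAC group, the duplicate 1 samples of the donors both held *Xist* (25.2 and 22.0 CPM) and Y-linked RNA (55.0 and 53.5 CPM), whereas the other PAC samples of donor 1 held at most 0.251 CPM of *Xist* and those of donor 2 held 0 CPM of Y-linked RNA. These 2 samples also differed least of the 38 within-group pairs, with a chi-square of 2.38 per gene against 8.54 to 288 in the other pairs. Both samples thus held RNA of each kind, unlike any other PAC sample, and they are called the 2 double-positive PAC samples below. Whether they hold RNA of more than 1 donor was not tested further. They enter every PAC value given here and every comparison by allele, and for the main PAC and *Braf* results the values without both PAC cultures of duplicate 1 are given as well.

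Per length of annotated exon, the order of the factors was the same with both treatments. With EtOH the median over 14 samples was 499 CPM per kb for *Cdx1*, 185 for *Cdx2*, 165 for *Klf5*, 152 for *Hnf4a*, 71.6 for *Klf4*, 13.4 for *Gata6* and 5.56 for *Hnf4g*. *Cdx1* was above *Cdx2* in all 14 samples with either treatment, with no overlap of their ranges. The ranges of *Cdx2* and *Klf5* overlapped with both treatments, as did those of *Klf5* and *Hnf4a*. With EtOH, *Cdx2* was above *Klf5* in 8 of 14 samples and *Klf5* above *Hnf4a* in 10 of 14, and with 4-HT the numbers were 7 and 13 of 14, so that with 4-HT *Klf5* stood above *Hnf4a* in all samples but 1. *Klf4*, *Gata6* and *Hnf4g* followed below without overlap of any neighbours. With 4-HT the median of *Klf4* was 27.0 CPM per kb and that of *Hnf4g* 3.22, while *Klf5* stood at 161.

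**Figure D1:**
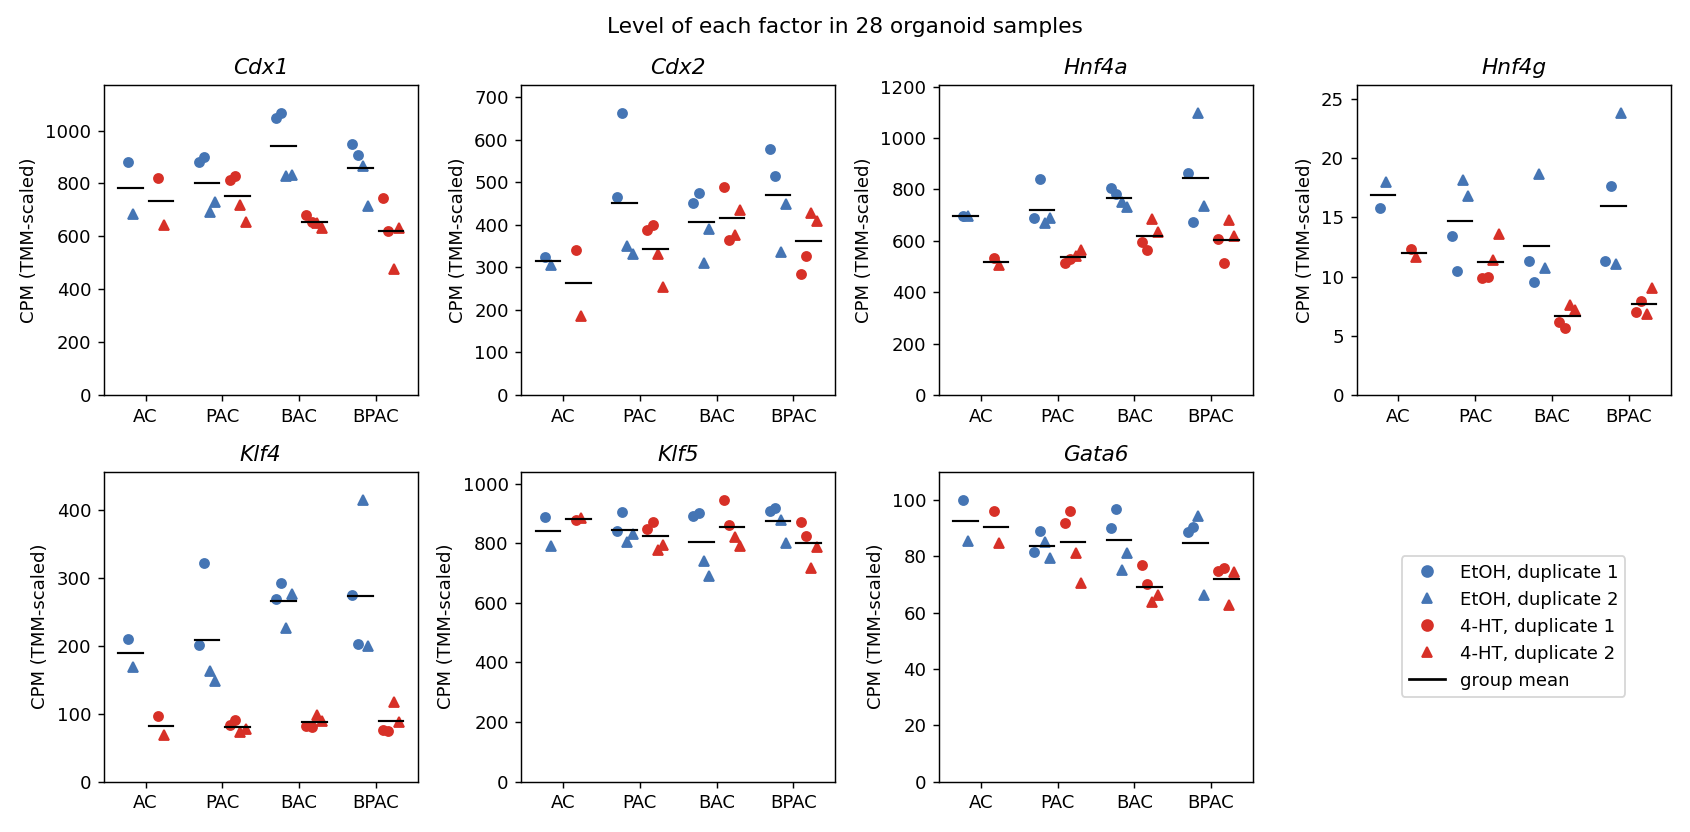
Level of each factor in CPM (vertical axis, from 0) in the 28 samples, by genotype and treatment, with circles for duplicate 1, triangles for duplicate 2 and a line at each group mean. The EtOH-treated and 4-HT-treated samples of Klf4 do not overlap in any genotype, while those of Klf5 lie between 692 and 946 CPM throughout.

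*Klf4* (ENSMUSG00000003032, chr4:55527143-55532466, minus strand, GRCm38, protein coding) had the strongest change of the 7. With EtOH it stood at 211 and 169 CPM in AC organoids, and with 4-HT at 96.7 and 68.4 CPM. In PAC organoids it stood at 200.5, 322, 162 and 149 CPM with EtOH and at 82.8, 90.3, 72.6 and 78.0 CPM with 4-HT. Every 4-HT-treated sample was below every EtOH-treated sample in these genotypes, and the same held with the *Braf* allele. BAC organoids held 269, 293, 226 and 276 CPM with EtOH and 81.6, 81.2, 97.8 and 88.9 CPM with 4-HT. BPAC organoids held 275, 203, 415 and 199.96 CPM with EtOH and 75.7, 74.6, 117 and 88.0 CPM with 4-HT. The EtOH-treated samples thus varied more than the 4-HT-treated ones, which had means between 81.0 and 88.9 CPM in all 4 genotypes.

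In edgeR's quasi-likelihood test with Benjamini-Hochberg adjustment over all genes, *Klf4* fell by 1.36 on the log2 scale in PAC (SE 0.22, adjusted p = 6.77e-05), by 1.61 in BAC (SE 0.22, adjusted p = 1.79e-06) and by 1.62 in BPAC (SE 0.22, adjusted p = 1.25e-06). These are folds of 2.57, 3.05 and 3.08. In AC the log2 fold change was -1.20 (SE 0.31) and the adjusted p of 0.0102 in the same edgeR test was just above the threshold of 0.01. With the culture as a replicate block, which pairs the EtOH-treated and 4-HT-treated sample of a culture, the AC change was -1.21 and passed (edgeR adjusted p = 0.000386). By that rule 8.99% of all genes were called lower in AC. Without both PAC cultures of duplicate 1, the PAC change was -1.05 and did not pass (edgeR adjusted p = 0.0325), in a fit that called 0.192% of all genes lower, nor did it in duplicate 2 alone (-1.05, edgeR adjusted p = 0.0608). With the replicate block and without those cultures it passed (-1.04, edgeR adjusted p = 0.00152), and with the 2 double-positive PAC samples summed it was -1.40 and passed (edgeR adjusted p = 0.000348).

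*Klf5* (ENSMUSG00000005148, chr14:99298691-99315036, plus strand, protein coding), the crypt counterpart of *Klf4*, passed the threshold in no comparison. In AC organoids it stood at 889 and 792 CPM with EtOH and at 879 and 886 CPM with 4-HT. BPAC organoids held 907, 919, 878 and 802 CPM with EtOH and 872, 826, 718 and 788 CPM with 4-HT. Treated and untreated samples overlapped in all 4 genotypes. Its log2 fold changes were 0.07 (SE 0.12) in AC, -0.04 (SE 0.09) in PAC, 0.08 (SE 0.09) in BAC and -0.13 (SE 0.09) in BPAC, with adjusted p values from 0.215 to 0.758 in edgeR, and their sign in PAC and BPAC turned when samples were scaled to library size alone. The PAC change was -0.06 without both PAC cultures of duplicate 1. Within a sample, the *Klf4* level per kb was 30.4% to 80.6% of the *Klf5* level with EtOH and 13.2% to 27.9% with 4-HT, with no overlap between the treatments. This ratio does not depend on the scaling of samples.

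*Hnf4a* (ENSMUSG00000017950, chr2:163506808-163572910, plus strand, protein coding) was lower with 4-HT in all 14 cultures. It stood at 695 and 697 CPM in EtOH-treated and at 531 and 505 CPM in 4-HT-treated AC organoids. PAC organoids held 691, 839, 669 and 688 CPM with EtOH and 513, 531, 541 and 564 CPM with 4-HT. The treatments did not overlap in AC, PAC and BAC. In BAC the values were 807, 783, 751 and 733 CPM with EtOH against 596, 563, 686 and 636 CPM with 4-HT. In BPAC they were 866, 674, 1097 and 734 CPM against 607, 515, 681 and 617 CPM, where the lowest EtOH-treated and the highest 4-HT-treated sample crossed.

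In edgeR's test *Hnf4a* fell by 0.43 on the log2 scale in PAC (SE 0.11, adjusted p = 0.00515) and by 0.48 in BPAC (SE 0.11, adjusted p = 0.000972), or folds of 1.34 and 1.39. The change was -0.43 in AC (SE 0.16, edgeR adjusted p = 0.0697) and -0.31 in BAC (SE 0.11, edgeR adjusted p = 0.0247), neither of which passed. Paired by culture as a replicate block, the BAC change passed (-0.31, edgeR adjusted p = 0.00446). The PAC call was lost without replicate 1 (edgeR adjusted p = 0.026), without replicate 2 (0.0593), without replicate 4 (0.0112), without both cultures of duplicate 1 (-0.30, 0.278, and 0.0803 with the replicate block in addition), in duplicate 2 alone (-0.30, 0.297), with donors summed (-0.44, 0.0369) and with the 2 double-positive samples summed (-0.41, 0.0165). Scaled to library size alone, the changes were -0.20 in PAC (edgeR adjusted p = 0.141) and -0.26 in BPAC (edgeR adjusted p = 0.0454). The BPAC call was also lost with donors summed (edgeR adjusted p = 0.014), in each duplicate alone (0.011 and 0.0374) and with BPAC fitted alone (0.0408).

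*Hnf4g* (ENSMUSG00000017688, chr3:3508030-3658052, plus strand, protein coding), the least abundant of the 7, also declined in all 14 cultures. It stood at 15.8 and 18.0 CPM in EtOH-treated and 12.3 and 11.7 CPM in 4-HT-treated AC organoids. In PAC it stood at 13.4, 10.5, 18.1 and 16.8 CPM with EtOH and 9.84, 9.98, 11.4 and 13.6 CPM with 4-HT. The PAC treatments overlapped, whereas those of BAC and BPAC did not. BAC organoids held 11.3, 9.51, 18.7 and 10.7 CPM with EtOH and 6.17, 5.62, 7.63 and 7.16 CPM with 4-HT. BPAC organoids held 11.3, 17.6, 11.1 and 23.8 CPM with EtOH and 6.98, 7.92, 6.84 and 9.01 CPM with 4-HT. All 8 samples of BAC and BPAC treated with 4-HT were below all 6 of AC and PAC treated with 4-HT.

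*Hnf4g* fell by 0.92 in BAC (SE 0.23, edgeR adjusted p = 0.0014) and by 1.05 in BPAC (SE 0.23, edgeR adjusted p = 0.000338) on the log2 scale, which are folds of 1.90 and 2.08. The changes in AC (-0.49, SE 0.32, edgeR adjusted p = 0.305) and PAC (-0.39, SE 0.22, edgeR adjusted p = 0.176) did not pass, and PAC without both cultures of duplicate 1 gave -0.48 (edgeR adjusted p = 0.354). The BAC call was lost without replicate 3 (-0.74, edgeR adjusted p = 0.0136), with donors summed (-0.93, 0.0191) and in duplicate 2 alone (0.0434). The BPAC call was lost in duplicate 2 alone (-1.14, edgeR adjusted p = 0.0248). The *Hnf4g* level per kb was 1.83% to 2.07% of the *Hnf4a* level in the 4-HT-treated BAC samples and 1.84% to 2.82% in those of BPAC, against 3.45% to 4.44% in those of PAC and 4.25% to 4.26% in those of AC. With EtOH the ratio lay between 1.85% and 5.96% and the genotypes overlapped.

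*Cdx1* (ENSMUSG00000024619, chr18:61018862-61036199, minus strand, protein coding) changed with 4-HT in the genotypes with the *Braf* allele. BAC organoids held 1046, 1066, 827 and 830.4 CPM with EtOH and 679, 653, 649.8 and 633 CPM with 4-HT. BPAC organoids held 949, 909.6, 866 and 714 CPM with EtOH and 747, 622, 475 and 632 CPM with 4-HT. The BAC treatments were separate, and in BPAC the highest 4-HT-treated sample lay above the lowest EtOH-treated one. AC organoids held 883 and 685 CPM with EtOH and 822 and 643 CPM with 4-HT. PAC organoids held 880.2, 899, 692 and 732 CPM with EtOH and 814, 827, 720.2 and 654 CPM with 4-HT. In AC and PAC the duplicates differed more than the treatments.

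*Cdx1* fell by 0.53 on the log2 scale in BAC (SE 0.13, edgeR adjusted p = 0.00183) and by 0.47 in BPAC (SE 0.13, edgeR adjusted p = 0.00406), or folds of 1.44 and 1.39. The change was -0.10 in AC (SE 0.19, edgeR adjusted p = 0.782) and -0.09 in PAC (SE 0.13, edgeR adjusted p = 0.641), and with library size alone both were above 0. The PAC change was -0.05 without both PAC cultures of duplicate 1. The BAC call was lost without replicate 1 (edgeR adjusted p = 0.0137) or 2 (0.0195), in duplicate 2 alone (-0.37, 0.0769) and with library size alone (-0.36, 0.0287). The BPAC call was lost without replicate 2 (edgeR adjusted p = 0.023) or 3 (0.0355), in duplicate 2 alone (-0.51, 0.022), with BPAC fitted alone (-0.44, 0.0303) and with library size alone (-0.26, 0.105).

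*Cdx2* (ENSMUSG00000029646, chr5:147300805-147307270, minus strand, protein coding) passed the threshold in no genotype, and its cultures went both ways. In BPAC organoids it stood at 577, 514, 337 and 449 CPM with EtOH and at 284, 326, 428 and 409 CPM with 4-HT. In BAC the values were 452, 474, 309 and 389.7 CPM with EtOH and 488, 364, 376 and 434 CPM with 4-HT. In BPAC the duplicate 1 cultures had the highest EtOH levels and the lowest 4-HT levels, and in BAC the treatments overlapped. AC organoids held 325 and 305 CPM with EtOH and 340.0 and 186 CPM with 4-HT. PAC organoids held 464, 662, 349 and 331 CPM with EtOH and 388, 398, 331 and 252 CPM with 4-HT. *Cdx2* was lower with 4-HT in 4 of 4 PAC, 3 of 4 BPAC, 1 of 4 BAC and 1 of 2 AC cultures.

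The log2 fold changes of *Cdx2* were -0.26 (SE 0.31) in AC, -0.40 (SE 0.22) in PAC, 0.03 (SE 0.22) in BAC and -0.38 (SE 0.22) in BPAC, with edgeR adjusted p values of 0.627, 0.156, 0.91 and 0.143. The PAC value was -0.22 without both cultures of duplicate 1 (edgeR adjusted p = 0.647) and -0.47 with the 2 double-positive samples summed (edgeR adjusted p = 0.141). The BPAC value depended on the duplicate. In duplicate 1 alone it fell by 0.85 and passed (edgeR adjusted p = 0.00136), where 22.0% of all genes were called lower, and in duplicate 2 alone it was 0.09 (edgeR adjusted p = 0.724), where 11.4% were. The difference itself, chosen for testing after the values were seen, was 0.93 (SE 0.26) for BPAC with an unadjusted p of 0.00272 and an edgeR adjusted p of 0.867, and so did not pass. Over all genotypes the 4-HT change of *Cdx2* was 0.34 higher in duplicate 2 (SE 0.19, edgeR adjusted p = 0.518). None of the 7 factors passed in that comparison of duplicates, in which 0.0518% of all genes did. Its unadjusted p was under 0.05 for none of the 7 and for 11.4% of all genes, and no other tool was run on it.

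**Figure D2:**
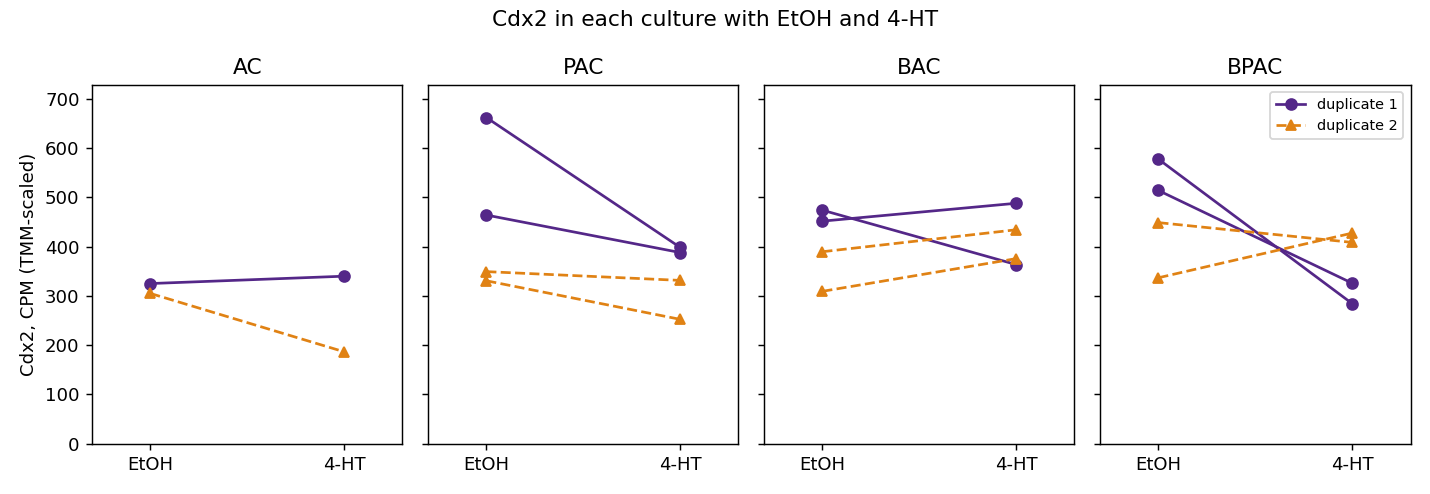
Level of Cdx2 in CPM (vertical axis, from 0) with EtOH and 4-HT in each of 14 cultures, in a panel per genotype; each line joins the samples of a culture, solid with circles for duplicate 1 and dashed with triangles for duplicate 2. The duplicate 1 lines of BPAC go from 577 and 514 down to 284 and 326 CPM, whereas the duplicate 2 lines end at 428 and 409 CPM.

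*Gata6* (ENSMUSG00000005836, chr18:11052064-11085635, plus strand, protein coding) stood between 62.5 and 99.96 CPM in all samples. The antisense gene *1010001N08Rik* shares 93 bases with it, or 1.43% of its exon length, and the strand setting of the counting is not given in the sources used here. In BAC organoids *Gata6* stood at 90.0, 96.6, 75.2 and 81.0 CPM with EtOH and at 77.0, 70.0, 63.6 and 66.1 CPM with 4-HT. In BPAC it stood at 88.6, 90.4, 94.1 and 66.1 CPM with EtOH and at 74.9, 75.7, 62.5 and 74.4 CPM with 4-HT. In BAC the treatments overlapped only by the EtOH-treated sample at 75.2 CPM and the 4-HT-treated one at 77.0 CPM. In BPAC the EtOH-treated sample at 66.1 CPM lay below the 4-HT-treated samples at 74.4, 74.9 and 75.7 CPM. The AC values were 99.96 and 85.2 CPM with EtOH and 96.0 and 84.7 CPM with 4-HT, and the PAC values lay between 70.4 and 96.1 CPM. The log2 fold change was -0.04 (SE 0.16) in AC, 0.02 (SE 0.11) in PAC, -0.31 (SE 0.11) in BAC and -0.24 (SE 0.11) in BPAC, with edgeR adjusted p values of 0.914, 0.898, 0.0215 and 0.0703. With the replicate block the BAC change passed (-0.31, edgeR adjusted p = 0.00888), as it did in duplicate 1 alone (-0.33, edgeR adjusted p = 0.00366). The PAC sign turned without replicate 1 (-0.03), without replicate 2 (-0.01) and without both cultures of duplicate 1 (-0.12), and the AC sign with library size alone (0.19).

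Of the 7 factors, the test called 4 in BPAC, 3 in BAC, 2 in PAC and 0 in AC, each of them lower with 4-HT. In AC, 2 of 7 had an unadjusted p under 0.05, as did 30.8% of all genes, and both limma-voom and DESeq2 called 1, *Klf4*. Of all genes, 7.25% passed in AC in either direction, and 12.2%, 21.5% and 23.0% were called lower in PAC, BAC and BPAC. With the replicate block 5 factors passed as lower in BAC, with *Hnf4a* and *Gata6* added, where 26.7% of all genes did. Over the 7, the median log2 fold change was -0.26 for AC, -0.39 for PAC, -0.31 for BAC and -0.47 for BPAC, against 0.01, -0.03, -0.04 and -0.04 over all genes. *Klf4*, *Hnf4a* and *Hnf4g* were lower with 4-HT in all 14 cultures, as were 19.5% of all genes, *Cdx1* in 13, *Gata6* in 11 and *Cdx2* and *Klf5* in 9. Scaling to library size alone moved the median change of all genes by 0.22 in AC and in PAC, by 0.21 in BPAC and by 0.17 in BAC, so the changes given here are relative to that median. In bulk RNA, fewer cells with a factor and less of its RNA per cell cannot be told apart.

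**Figure D3:**
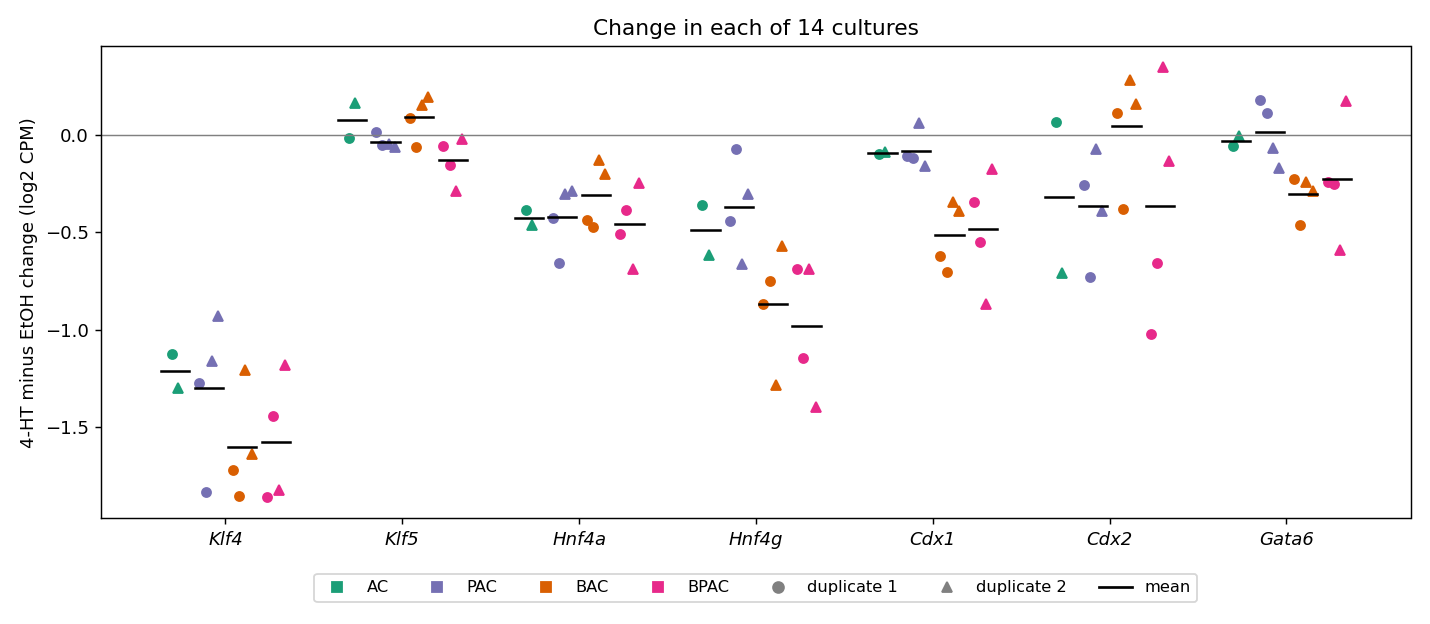
Change from EtOH to 4-HT in log2 CPM (vertical axis, prior count of 2) of each factor in each of 14 cultures, coloured by genotype, with circles for duplicate 1, triangles for duplicate 2 and a line at the mean. Klf4 lies between -1.86 and -0.93 in all cultures, Klf5 between -0.29 and 0.19, and the BAC and BPAC cultures of Hnf4g between -1.40 and -0.57.

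The effect of the *Braf* allele on the response was tested by subtracting the mean 4-HT change without the allele (AC, PAC) from that with it (BAC, BPAC). In edgeR's test 0 of the 7 factors passed, against 6.61% of all genes, and 3 had an unadjusted p under 0.05, where 28.5% of all genes did, while limma-voom and DESeq2 called 0. The difference was -0.41 for *Cdx1* (SE 0.15, edgeR adjusted p = 0.0662), -0.55 for *Hnf4g* (SE 0.25, edgeR adjusted p = 0.149), -0.27 for *Gata6* (SE 0.12, edgeR adjusted p = 0.156) and -0.33 for *Klf4* (SE 0.24, edgeR adjusted p = 0.393). For *Hnf4a* (0.03, SE 0.13), *Klf5* (-0.04, SE 0.10) and *Cdx2* (0.16, SE 0.24) the edgeR adjusted p was 0.897, 0.834 and 0.719. The *Cdx2* difference was -0.25 in duplicate 1 alone (edgeR adjusted p = 0.393) and 0.62 in duplicate 2 alone (unadjusted p = 0.011, edgeR adjusted p = 0.146). With the replicate block *Cdx1* passed (-0.41, SE 0.11, edgeR adjusted p = 0.00937), as did 7.48% of all genes as lower. Without both PAC cultures of duplicate 1 the difference for *Cdx1* was -0.43 (edgeR adjusted p = 0.0788). With the replicate block and without these cultures it was also -0.43 and did not pass (edgeR adjusted p = 0.0186), nor did any other of the 7, in a fit that called 7.37% of all genes lower. In that fit 3 of the 7 had an unadjusted p under 0.05, where 37.9% of all genes did, and no other tool was run on it.

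Taken as means per donor, the 4-HT change of *Cdx1* was -0.49 and -0.55 in the BAC donors and -0.61 and -0.36 in the BPAC donors, against -0.10 in the AC donor and -0.03 and -0.14 in the PAC donors. The donors with and without the *Braf* allele did not overlap for *Cdx1*, *Hnf4g* and *Gata6*, with the lower values in the donors with the allele. That is 3 of the 7 factors, while 35.3% of all genes showed donors without overlap in either direction. For *Gata6* the gap was small, with -0.04 in a BPAC donor against -0.03 in the AC donor and in a PAC donor. The PAC means rest in part on the 2 double-positive samples, which may not stand for single donors. Without both PAC cultures of duplicate 1, the donors did not overlap for *Cdx1* and *Klf4*, again lower with the allele, and overlapped for *Hnf4g* and *Gata6*, while 34.5% of all genes showed no overlap. In duplicate 2 alone only *Cdx1* of the 7 remained without overlap, where 24.4% of all genes had none.

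The levels with 4-HT were compared directly as well. In 4-HT-treated organoids *Hnf4g* was lower with the *Braf* allele by a log2 difference of -0.70 (SE 0.18, edgeR adjusted p = 0.00239) and *Gata6* by -0.31 (SE 0.09, edgeR adjusted p = 0.00547). These are 2 of the 7 factors, and 14.6% of all genes were called lower and 30.2% in either direction. Without both PAC cultures of duplicate 1, *Hnf4g* remained past the threshold (-0.78, edgeR adjusted p = 0.00207) and *Gata6* did not (-0.23, edgeR adjusted p = 0.0524). The *Hnf4g* call was lost without AC replicate 1 (edgeR adjusted p = 0.0156) or 2 (0.011), with donors summed (0.0272) and in duplicate 2 alone (0.0957). The *Gata6* call was lost without AC replicate 1, PAC replicate 1 or 2, BAC replicate 3 or 4 or BPAC replicate 3, with edgeR adjusted p values from 0.0104 to 0.0483, in duplicate 2 alone (0.15) and with the 2 double-positive samples summed (0.0126). The *Cdx1* level did not pass (-0.22, SE 0.10, edgeR adjusted p = 0.0853), but did with the duplicate number as a covariate (-0.22, edgeR adjusted p = 0.00699). The *Cdx2* level was 0.37 higher with the allele (SE 0.17, edgeR adjusted p = 0.0886). Within duplicate 1 this difference was -0.02 (edgeR adjusted p = 0.907), and within duplicate 2 it was 0.82 and passed (edgeR adjusted p = 0.00443), where 3.83% of all genes were called higher.

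With EtOH, 0 of the 7 differed by the *Braf* allele in edgeR, limma-voom or DESeq2, as against 0.0296% of all genes in edgeR, and 1 had an unadjusted p under 0.05, *Klf4* (0.44, SE 0.17, edgeR adjusted p = 0.204), where 17.2% of all genes did. The *Klf4* difference was 0.14 in duplicate 1 alone and 0.78 in duplicate 2 alone (edgeR adjusted p = 0.679 and 0.21). With both PAC cultures of duplicate 1 left out, 0 of the 7 passed and 4 had an unadjusted p under 0.05, each higher with the allele, where 25.8% of all genes did. These were *Klf4* (0.65, edgeR adjusted p = 0.0326), *Cdx2* (0.42, 0.123), *Cdx1* (0.27, 0.145) and *Hnf4a* (0.23, 0.164). The *Trp53* allele was tested in the same ways. For the 4-HT change and for the levels with EtOH and 4-HT, 0 of the 7 passed in edgeR, limma-voom and DESeq2, while 0.0148%, 0.0592% and 0.0444% of all genes passed in edgeR. The number with an unadjusted p under 0.05 was 0, 1 and 0, beside 1.04%, 4.96% and 2.42% of all genes, the 1 being *Cdx2* with EtOH (0.36, SE 0.17, edgeR adjusted p = 0.989). The largest *Trp53* difference in the 4-HT change was that of *Cdx2*, -0.27 (SE 0.24, edgeR adjusted p = 1). It was -0.65 in duplicate 1 alone (unadjusted p = 0.00498, edgeR adjusted p = 0.976), 0.18 in duplicate 2 alone and -0.19 without both PAC cultures of duplicate 1 (edgeR adjusted p = 1 for both).

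**Figure D4:**
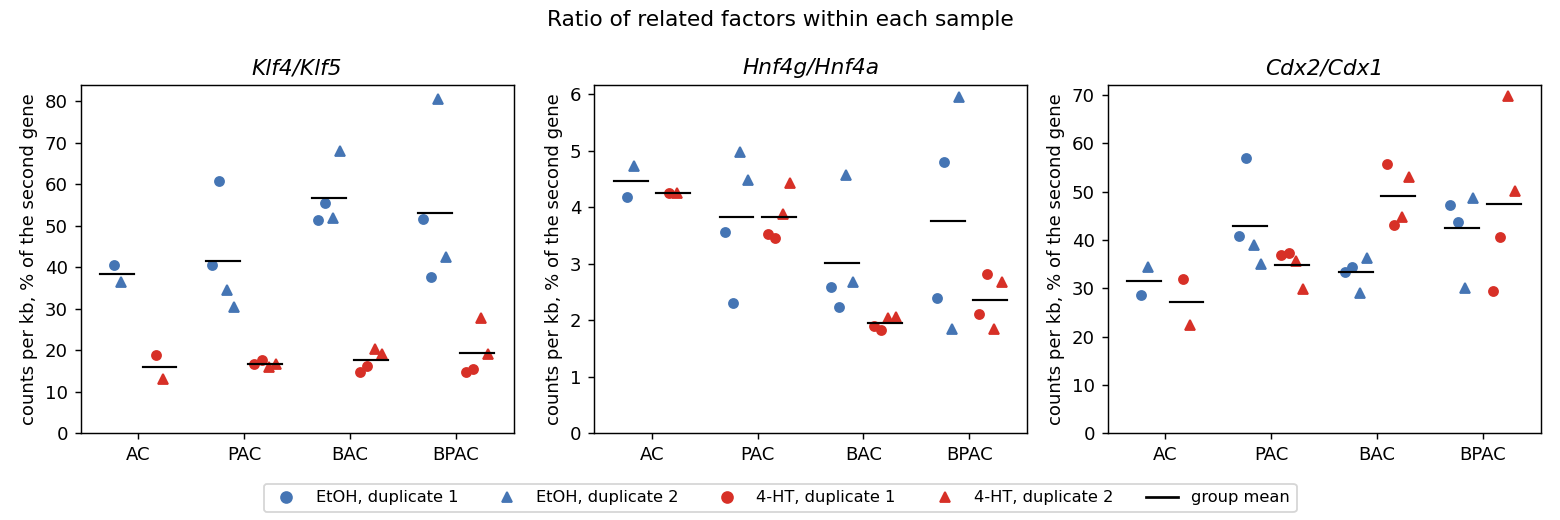
Level per kb of exon of Klf4 as a percentage of Klf5, of Hnf4g as a percentage of Hnf4a and of Cdx2 as a percentage of Cdx1 (vertical axes, from 0) within each of 28 samples, by genotype and treatment, with a line at each group mean. Klf4/Klf5 lies at 30.4% to 80.6% with EtOH and 13.2% to 27.9% with 4-HT, and Hnf4g/Hnf4a at 1.83% to 2.82% in 4-HT-treated BAC and BPAC organoids against 3.45% to 4.44% in those of AC and PAC.

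The *Cdx2* level per kb was 28.5% to 57.0% of the *Cdx1* level with EtOH and 22.4% to 69.7% with 4-HT. In BAC it was 28.9% to 36.3% with EtOH and 43.1% to 55.6% with 4-HT, without overlap. In the other 3 genotypes the treatments overlapped. These 3 ratios were chosen after the values were seen and are given without a test.

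The genes whose 4-HT change over the 14 cultures was most like that of a factor were sought among 9011 genes with a mean of at least 10 CPM. The cultures share genotypes and donors, so the Pearson's r values are a description. For *Klf4* these were *Mul1* (r = 0.937), *Fer1l4* (0.936) and *Adra2a* (0.900). For *Cdx1* they were *Pgap3* and *Ppargc1b* (both 0.941) and *Fcgbp* (0.939), a goblet cell gene. For *Cdx2* they were *Mpst* (0.878), *Rraga* (0.872) and *Clca4a* (0.868). For *Hnf4a* they were *Usp12* (0.922), *Slc45a4* (0.920) and *Urgcp* (0.918), and for *Hnf4g* *Erlec1* (0.896), *Cdk6* (0.864) and *Rex1bd* (0.861). *Klf5* was most like *Wdr41* (0.843), *Dock6* (0.811) and *Sart1* (0.806). *Gata6* was most like *Rab3d* (0.867), *Cdx1* (0.838), the factor of the list itself, and *Nsmf* (0.837).

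Genes of enterocytes and colonocytes, taken as lying under CDX2 and HNF4, were followed as a list chosen by name. Binding of the factors to them was not measured. Of 44 listed genes 41 were measured, and none passed as higher. The number that fell was 41 for BPAC, 36 for BAC, 33 for PAC and 23 for AC, and 5, 8 and 18 did not pass in BAC, PAC and AC. Over all genes 45.0%, 41.9%, 23.4% and 7.25% passed in either direction. The median log2 fold change of the list was -1.39, -1.18, -1.68 and -2.05 in AC, PAC, BAC and BPAC. In BPAC organoids the falls were largest for the brush border enzymes *Sis* (-5.01, SE 0.52), *Anpep* (-4.68, SE 0.52) and *Mep1a* (-3.31, SE 0.25), the apolipoprotein gene *Apoc3* (-3.72, SE 0.73) and the transporter gene *Slc5a8* (-3.50, SE 0.31), each with an edgeR adjusted p of 0.000127 or less. Sucrase-isomaltase RNA (*Sis*) went from 82.6 ± 32.8 CPM (SD, n = 4) to 2.63 ± 1.62 CPM. The 4-HT change was lower with the *Braf* allele for 11 of the 41 genes and higher for none, beside 6.61% of all genes called in either direction. Among the 11 were *Sis* (-2.52), *Anpep* (-2.06), *Slc5a8* (-1.71), the guanylin family gene *Guca2b* (-1.65) and *Mep1a* (-1.54). In the fit with the replicate block 18 of the 41 were lower with the allele, beside 7.48% of all genes. When both PAC cultures of duplicate 1 were left out, 1 fell in PAC and 9 were lower with the allele, where 0.355% and 5.84% of all genes passed in either direction. A link between these falls and the levels of the factors was not tested.

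Of 33 other intestinal transcription factors 31 were measured. In AC 3 rose and 3 fell, in PAC 6 rose and 8 fell, and in BAC and in BPAC 7 rose and 11 fell, with list medians of -0.21, -0.34, -0.50 and -0.78. Of all genes 7.25%, 23.4%, 41.9% and 45.0% passed in either direction in AC, PAC, BAC and BPAC. In BPAC the largest falls past the threshold were those of the nuclear receptor genes *Ppara* (-2.81, SE 0.22), *Nr5a2* (-1.96, SE 0.21), *Nr1h4* (-1.84, SE 0.22) and *Vdr* (-1.62, SE 0.18) and of the leucine zipper gene *Maf* (-1.55, SE 0.42). The largest rises were those of *Spdef* (1.66, SE 0.24) and *Atoh1* (1.29, SE 0.21), factors of the secretory lineage, of *Foxa3* (1.50, SE 0.15) and *Foxa2* (1.00, SE 0.21), and of *Sox9* (1.06, SE 0.12), a factor of crypt cells. The change was lower with the *Braf* allele for *Ppara* (-1.50, edgeR adjusted p = 0.000166), *Nr5a2* (-1.10, 0.00156), *Vdr* (-0.78, 0.0074) and *Isx* (-0.39, 0.00432), which are 4 of 31 where 6.61% of all genes passed in either direction, and higher for none. In the fit with the replicate block 3 of the 31 rose and 8 fell in AC, and 6 rose and 13 fell in PAC. There 7 rose and 13 fell in BAC, and 7 rose and 17 fell in BPAC. Of all genes 16.4%, 34.9%, 51.9% and 54.4% passed in either direction in AC, PAC, BAC and BPAC. In that fit 6 of the 31 were lower with the *Braf* allele and 0 higher, beside 7.48% of all genes lower. In PAC 0 passed without both cultures of duplicate 1, and 3 were then lower with the allele, beside 0.355% and 5.84% of all genes.

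Of 17 other *Klf* and *Sp* genes listed, 15 were measured, and in BPAC 2 fell, *Klf6* (-1.04, SE 0.15, edgeR adjusted p = 3.27e-06) and *Klf3* (-0.74, SE 0.12, edgeR adjusted p = 1.68e-05), and 2 rose, *Sp5* (2.75, SE 0.29, edgeR adjusted p = 2.29e-08) and *Klf16* (0.71, SE 0.17, edgeR adjusted p = 0.00113). *Sp5*, a known target of Wnt signaling, also rose in AC (1.75), PAC (2.33) and BAC (2.91). The numbers up and down were 1 and 0 in AC, 1 and 3 in PAC and 2 and 3 in BAC, and with the replicate block 1 and 2 in AC, 2 and 3 in PAC, 2 and 4 in BAC and 2 and 3 in BPAC, in fits that called 16.4%, 34.9%, 51.9% and 54.4% of all genes. The counts without the block stand beside 7.25%, 23.4%, 41.9% and 45.0% of all genes called in either direction in AC, PAC, BAC and BPAC. For the change by the *Braf* allele 0 of 15 passed, beside 6.61% of all genes. In PAC 1 rose and 0 fell without both cultures of duplicate 1, beside 0.355% of all genes.

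KLF4 is known to support goblet cell genes. Of 16 such genes 0 passed in AC, 4 rose in PAC, 4 rose and 6 fell in BAC, and 4 rose and 5 fell in BPAC, beside 7.25%, 23.4%, 41.9% and 45.0% of all genes called in either direction, so that the PAC share was near that of all genes. In BPAC the mucus genes *Fcgbp* (-1.68), *Zg16* (-1.50) and *Tff3* (-1.21) and the calpain genes *Capn8* (-1.50) and *Capn9* (-1.19) fell, whereas *Spdef* (1.66), *Agr2* (1.30), *Creb3l1* (1.17) and *Galnt12* (0.60) rose. The mucin gene *Muc2* did not pass (-0.33). The change was lower with the *Braf* allele for *Tff3* (-0.98, edgeR adjusted p = 0.00755) and higher for *Agr2* (0.83, edgeR adjusted p = 0.00564), or 2 of 16 beside 6.61% of all genes. Under the replicate block 5 of 16 were lower with the allele, and 1 rose and 2 fell in AC and 5 rose and 4 fell in PAC, beside 7.48% of all genes lower with the allele and 16.4% and 34.9% called in AC and PAC. With both PAC cultures of duplicate 1 left out, 0 passed in PAC and 0 by the allele, where 0.355% and 5.84% of all genes did.

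Of 16 proliferation genes none fell, and 16 rose with 4-HT in BPAC, 15 in BAC, 13 in PAC and 5 in AC, with medians of 1.04, 1.08, 0.52 and 0.52. The shares of all genes called in either direction were 45.0%, 41.9%, 23.4% and 7.25%. The largest rises in BPAC were those of the replication genes *Mcm2* (1.46), *Mcm3* (1.34) and *Mcm5* (1.25) and the mitotic genes *Bub1* (1.35) and *Ccnb1* (1.28). Their change was higher with the *Braf* allele for 5 of 16, *Bub1* (0.70), *Ccnb1* (0.66), *Aurka* (0.57), *Aurkb* (0.55) and *Ccna2* (0.53), where 6.61% of all genes passed in either direction. Under the replicate block 13 rose in AC and 9 were higher with the allele, where 16.4% of all genes passed in either direction in AC and 6.51% were higher with the allele. Leaving out both PAC cultures of duplicate 1, 0 passed in PAC and 6 were higher with the allele, beside 0.355% and 5.84% of all genes. Of 18 gastric and foregut genes, which rise where CDX2 is lost from intestinal cells, 5 were among the genes analysed, and *Psca* fell in BAC and BPAC (-1.99, SE 0.26, in BPAC), where 21.5% and 23.0% of all genes were called lower. The other 4 did not pass for the 4-HT change in any genotype. With the replicate block 1 of the 5 fell in AC and 1 in PAC, where 16.4% and 34.9% of all genes passed in either direction. In the levels with 4-HT, *Psca* was lower (-0.78, SE 0.20, edgeR adjusted p = 0.00307) and *Pdx1*, a factor of duodenum and pancreas, higher (1.71, SE 0.48, edgeR adjusted p = 0.00587) with the *Braf* allele, and these 2 of 5 are near the 30.2% of all genes that passed there.

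**Figure D5:**
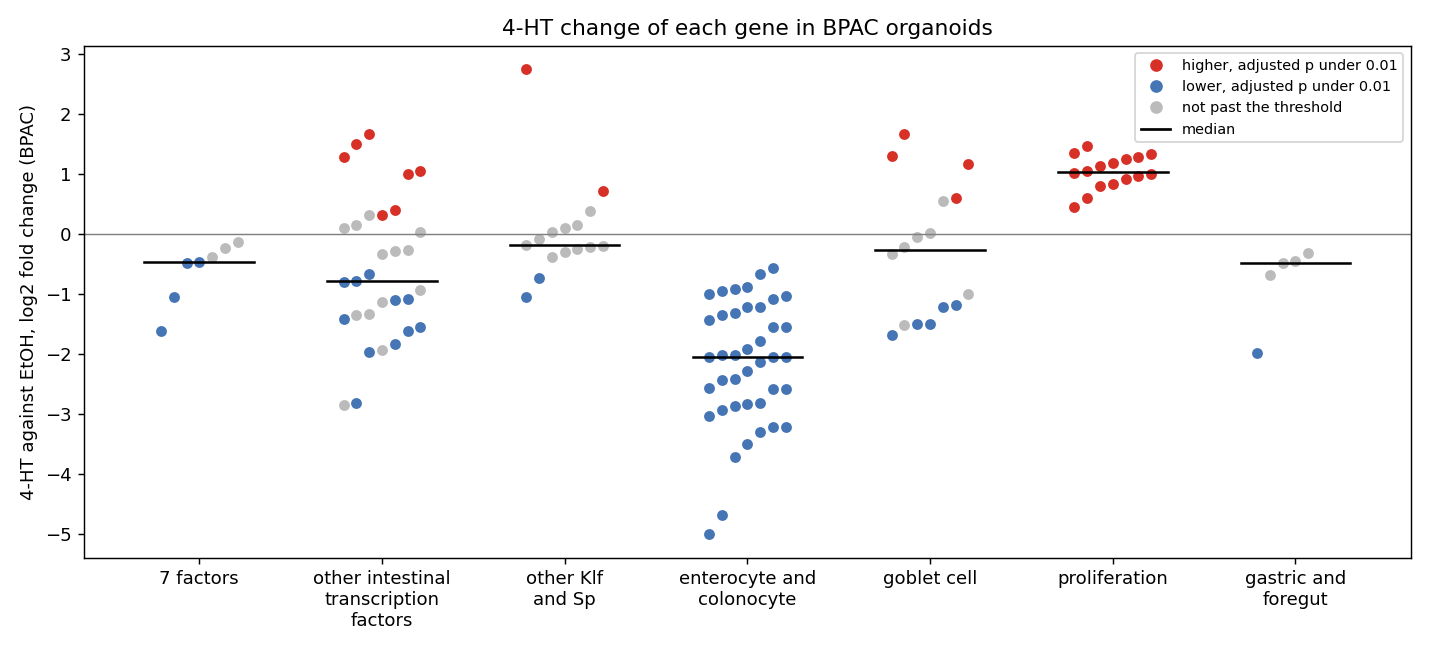
Log2 fold change of 4-HT against EtOH in BPAC organoids (vertical axis) of each gene of the 7 factors and of the companion lists, red for genes called higher, blue for genes called lower, grey for genes not past the threshold, with a line at each median. All 41 enterocyte and colonocyte genes are blue and all 16 proliferation genes red, while the 7 factors lie between -1.62 and -0.13.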

How the data were processed

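The authors deposited raw counts of reads per gene, whole numbers without normalization, for 13519 genes. Per the labels and the study's methods, reads were trimmed with Trimmomatic 0.39 and aligned to GRCm38 with STAR 2.5.2b. The counting program, its annotation and its strand setting are not given in the sources used here. The reads themselves were not analysed here. Symbols, coordinates and exon lengths were taken from GENCODE vM21 (13479 genes matched).

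Counts were scaled by TMM and tested with edgeR 4.0.16 (R 4.3.3), by the quasi-likelihood test on 8 group means over all 28 samples, with Benjamini-Hochberg adjustment over all genes and a threshold of 0.01. Standard errors follow from the fold change and the F statistic. Differences by the *Braf* and the *Trp53* allele were contrasts of group means in the same fit. CPM carry the TMM scaling, and changes per culture used log2 CPM with a prior count of 2. No further gene was filtered out. The lowest sum of a gene over the 28 samples was 116 counts, so genes with lower sums were absent as deposited. Shares of all genes refer to the 13519 deposited ones. The EtOH-treated and 4-HT-treated samples of a culture share donor and duplicate, so the culture was also fitted as a replicate block. Their deviations from the group means correlated in each of 12 cultures (lowest r 0.386, mean 0.572). For levels by allele a block could not be fitted, since each culture has a single genotype.

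Limma-voom (limma 3.58.1), DESeq2 1.42.0, other scalings, filters, blocks and subsets of samples served as alternatives. The comparison of duplicates, the sum of the 2 double-positive PAC samples, and the replicate block and the donor means without both PAC cultures of duplicate 1 were added after the data were seen. Named genes were the 7 factors, the 3 genes most like each in 4-HT change, and up to 5 rises and 5 falls per companion list in BPAC and by the *Braf* allele, past the threshold. The factors and companion lists were chosen with earlier results of these data known. On simulated counts with 200 changed genes among 13519, edgeR recovered 38.8% of the changes by 2-fold in AC, 65.7% in BPAC and 65.7% of the differences by the *Braf* allele, with at most 1 false call. At 1.5-fold it recovered 10.4%, 29.9% and 25.4%. The simulated samples were independent, without paired cultures or shared donors and with far fewer changed genes. These figures therefore do not give the recovery or the false calls in the data. Totals ranged from 20577276 to 40068718. Molecular identifiers are not mentioned, so reads may not be independent molecules. Figures were drawn with Python 3.11.15.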

Additional observations from a re-analysis of the deposited data

Results flagged for a closer look

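In groups of 4, a sample that stood apart from the rest was sought in 63 sets of values of the 7 factors, and 2 were found, where chance gives about 1 in 20. *Hnf4a* stood at 839 CPM in the EtOH-treated PAC sample of replicate 2, with the other 3 samples of that group between 669 and 691 CPM. *Gata6* stood at 62.5 CPM in the 4-HT-treated BPAC sample of replicate 3, with the other 3 between 74.4 and 75.7 CPM.

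The 4-HT change of *Cdx1* was lower in organoids that carry the *Braf* allele, by a log2 difference of -0.41 in the test with the replicate block (edgeR adjusted p = 0.00937), and by -0.41 without it (edgeR adjusted p = 0.0662). Without both PAC cultures of duplicate 1, whose 4-HT-treated samples held both *Xist* and Y-linked RNA, it was -0.43 with the replicate block and did not pass (edgeR adjusted p = 0.0186).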

How the results depend on the processing

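The number of factors past the threshold in AC was 0 in the test as reported and 1, *Klf4*, with limma-voom, DESeq2, DESeq2 size factors, a minimum mean of 10 CPM, the replicate block, the donor block, the duplicate number as a covariate or an adjusted p under 0.05. In PAC it was 2, and 1 with library size alone, donors summed or the 2 double-positive samples summed, and 0 in duplicate 2 alone or without both cultures of duplicate 1, which with the replicate block in addition gave 1, *Klf4*. In BAC it was 3, and 5 with the minimum of 10 CPM, the replicate block or an adjusted p under 0.05, and 1, *Klf4*, in duplicate 2 alone. It was 2 with library size alone, without *Cdx1*, and 4 in duplicate 1 alone, with *Gata6* added. In BPAC it was 4, and 2 with library size alone or each genotype fitted alone, and 1, *Klf4*, in duplicate 2 alone. In duplicate 1 alone it was also 4, with *Cdx2* in place of *Hnf4a*. For the 4-HT change by the *Braf* allele it was 0, and 1 with the replicate block or the duplicate covariate. For the level with 4-HT by that allele it was 2, and 1 with donors summed (*Gata6*), without both PAC cultures of duplicate 1 or with the 2 double-positive samples summed (*Hnf4g*). In duplicate 2 alone it was 1 as well, but this was *Cdx2*, higher with the allele, while *Hnf4g* and *Gata6* did not pass. With the duplicate covariate it was 3, with *Cdx1* added. Leaving out each culture in turn gave 1 to 2 in PAC and 0 to 2 for that level. Donors without overlap by the *Braf* allele were 3 factors, 1 in duplicate 2 alone, and 2, *Cdx1* and *Klf4*, without both PAC cultures of duplicate 1. For all genes the shares without overlap were 35.3%, 24.4% and 34.5%. The share of all genes called moved as well. It was 7.25% in AC in either direction, and 16.4% with the replicate block. Called lower were 12.2% in PAC, and 0.192% without both cultures of duplicate 1. In BAC 21.5% were called lower, and 26.7% with the replicate block. In BPAC 23.0% were, and 22.0% and 11.4% in duplicates 1 and 2 alone. Other settings are given without such a share.

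Values that changed sign were all short of the threshold on both sides, and the cause was not tested. With library size alone, *Cdx1* was 0.12 in AC and 0.14 in PAC, *Klf5* 0.19 in PAC and 0.08 in BPAC, and *Gata6* 0.19 in AC. In duplicate 1 alone, *Cdx2* was 0.05 in AC, -0.10 in BAC, -0.25 for the change and -0.02 for the 4-HT level by the *Braf* allele, *Klf5* -0.03 in AC and 0.01 for that level, and *Klf4* -0.23 for that level. In duplicate 2 alone, *Cdx2* was 0.09 in BPAC and *Gata6* -0.12 in PAC. *Gata6* in PAC was also -0.12 without both cultures of duplicate 1 and -0.03 with the double-positive samples summed. With the minimum of 10 CPM, *Cdx2* was -0.01 in BAC and *Hnf4a* -0.01 for the change by the allele, and the latter was -0.03 without both PAC cultures of duplicate 1 and -0.02 with the replicate block in addition. *Gata6* in PAC was -0.12 in that blocked fit. With donors summed *Klf5* was 0.01 for that change. Leaving out single cultures put *Cdx2* at 0.06 and *Klf5* at -0.02 in AC without AC replicate 2, *Gata6* at -0.03 and -0.01 in PAC without PAC replicates 1 and 2, and *Cdx2* at -0.03 and -0.01 in BAC without BAC replicates 3 and 4. For the change by the allele, *Cdx2* was -0.01 and *Klf5* 0.0045 without AC replicate 2, and *Hnf4a* -0.01 without PAC replicate 2 and -0.0023 without BPAC replicate 4, while *Klf4* was -0.01 for the 4-HT level without AC replicate 2. Over all cultures left out, the values reached -0.71 (*Cdx2*) and 0.16 (*Klf5*) in AC, 0.17 (*Cdx2*) in BAC, 0.38 (*Cdx2*) and -0.09 (*Klf5*) for the change by the allele, and 0.24 (*Klf4*) for the level.

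Of single values, 780 kept direction and side of the threshold, 42 no longer passed, 20 passed in addition and 33 changed sign. The *Klf4* calls in BAC and BPAC held in all 17 alternatives each. The replicate block changed the calls given beside the results and no other call of the 7 factors. AC had 1 donor and 2 samples per treatment, against 2 donors and 4 samples for each other genotype, and the parts of donors and samples in the precision cannot be told apart. With a single AC culture left, that culture was assumed to vary like the other groups.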
